A study of Mus musculus with 14 samples.

Results

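The gene set described here holds 35 genes that store, release, pump or exchange calcium inside the cell, together with the mitochondrial channels that take it up and the proteins that bind it within the endoplasmic reticulum (ER). Members were chosen by name, as the rows of the deposited expression files whose label equals the gene symbol or the symbol with a copy number, out of 48714 gene labels shared by all libraries. They were split into 6 release channels, 4 regulators of leak and release, 7 pumps, 2 plasma membrane exchangers, 8 mitochondrial genes and 8 luminal calcium binders. Of the 35 members, 28 had a mean of 1 RPKM or more (reads per kilobase of gene model, scaled by sequencing depth) and were tested. The other 7 (Ryr1, Ryr2, Ryr3, Atp2a1, Atp2b2, Slc24a3 and Nucb2) lay below that level and are given by level only. The libraries were made from hematopoietic stem cells (HSCs) of C57BL/6 mouse bone marrow that had been sorted by calcium level into a calcium-high and a calcium-low group, with 7 libraries of 100 cells each. The labels give no age, genotype change or drug treatment for either group, and they do not say how calcium was measured, which other sort gates were used, or whether the libraries came from separate animals. P-values therefore measure only the spread between these libraries, which may be technical. The title of the series ties HSC dormancy to cytoplasmic calcium, and the comparison asks whether transcripts of the calcium-handling machinery differed between cells sorted for that ion.

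Calcium in the cytoplasm is kept low by pumps that move it across the plasma membrane and into the ER, where luminal proteins bind it. Signals that produce inositol trisphosphate (IP3) open IP3 receptors in the ER membrane and release the store, and mitochondria close to the release sites take up a share of it through the outer membrane channels and the uniporter. Long-term HSCs are largely quiescent, and their calcium handling is known to bear on cycling and on mitochondrial activity.

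Luminal binders and ER chaperones are textbook targets of the unfolded protein response, so the 250 bases upstream of each gene start in RefSeq (GRCm38.p6) were searched on both strands for 2 spellings of the ER stress response element. The first is CCAAT and CCACG with 9 free bases between them, and the second is ATTGG and CCACG with 1 free base between them, so both end in the same letters. A promoter was on hand for 26 of the 35 members. The first spelling occurred in 35 of 27025 promoters (0.13%), among them those of the members Calr and Canx and of 6 of 15 ER chaperones (Calr4, Creld2, Dnajc3, Hsp90b1, Hspa5 and Pdia6). The second occurred in 10 promoters (0.037%), those of the members Herpud1 and Nucb1 among them. These are matches of letters, with no measurement of binding. Shown are 2 members and 2 chaperones that hold the element, and whether it bears on their levels was not tested. Each is written 5′ to 3′ on the strand of its gene, with every match to its spelling in capitals.
Canx, chr11:50325674-50325923 (minus strand): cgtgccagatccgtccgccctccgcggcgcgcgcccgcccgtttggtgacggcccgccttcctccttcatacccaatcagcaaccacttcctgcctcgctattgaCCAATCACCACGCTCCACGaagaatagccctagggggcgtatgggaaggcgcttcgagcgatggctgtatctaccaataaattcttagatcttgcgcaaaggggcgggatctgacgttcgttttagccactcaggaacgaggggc
Nucb1, chr7:45510409-45510658 (minus strand): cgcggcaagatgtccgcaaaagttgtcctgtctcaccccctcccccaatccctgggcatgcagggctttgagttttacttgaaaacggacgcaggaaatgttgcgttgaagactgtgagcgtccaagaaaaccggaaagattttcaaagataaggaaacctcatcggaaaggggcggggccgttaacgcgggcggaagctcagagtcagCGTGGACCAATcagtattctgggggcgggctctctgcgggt
Hspa5, chr2:34771840-34772089 (plus strand): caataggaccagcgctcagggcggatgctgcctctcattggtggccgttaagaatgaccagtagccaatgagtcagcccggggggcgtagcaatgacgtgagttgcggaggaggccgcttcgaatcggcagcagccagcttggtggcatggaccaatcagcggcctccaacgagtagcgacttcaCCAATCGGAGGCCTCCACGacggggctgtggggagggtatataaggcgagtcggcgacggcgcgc
Hsp90b1, chr10:86705445-86705694 (minus strand): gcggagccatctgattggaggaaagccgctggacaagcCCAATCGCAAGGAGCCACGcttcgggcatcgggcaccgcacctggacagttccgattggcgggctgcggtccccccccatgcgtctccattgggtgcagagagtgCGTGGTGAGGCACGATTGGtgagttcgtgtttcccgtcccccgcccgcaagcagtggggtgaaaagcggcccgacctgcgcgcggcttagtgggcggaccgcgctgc
The match in Canx lay 126 bases before the gene start and that in Hspa5 46 bases before it. In Nucb1 the element read in the opposite direction and ended 30 bases before the start. Hsp90b1 held 2 matches, 1 in each direction, and the one nearer the gene start read in the opposite direction and ended 88 bases before it.

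In replicates 1 to 3, between 3.48 and 7.22 M reads of a library fell in the 9921 tested genes, and in replicates 4 to 7 between 8.10 and 10.1 M. The labels list these 2 sets of replicates one after the other and do not say whether they were prepared apart. Of 9921 genes, 4843 (48.8%) differed between the sets at an adjusted p under 0.05 in limma, whichever calcium group they came from. The HSC markers Kit (59.3 to 76.1 RPKM), Hlf (24.4 to 56.4 RPKM) and Procr (1.48 to 10.7 RPKM) were present in every library. Procr was lowest in calcium-low replicate 3, at 1.48 RPKM against 2.37 to 10.7 in the other 13 libraries. The 9 HSC markers summed to 165 to 337 RPKM in calcium-high and 157 to 251 RPKM in calcium-low libraries. Of these, 8 of 9 were higher in the calcium-high group, against 0 of 6 cycling markers. Without calcium-low replicate 3, the cycling markers summed to 4.94 to 19.3 RPKM in calcium-high and 7.20 to 23.0 RPKM in calcium-low libraries, which overlapped. The library of calcium-low replicate 3 stood apart: its neutrophil markers summed to 754 RPKM against 1.28 to 77.3 in the other 13 libraries, its cycling markers to 206 against 4.94 to 23.0, and its erythroid markers to 346 against 115 to 230. Markers of B cells, T and NK cells, macrophages, mast cells, stroma and striated muscle summed to at most 33.0 RPKM in any library. The T and NK list spanned 11.6 to 33.0 RPKM in the calcium-low and 3.46 to 18.1 RPKM in the calcium-high group. Of its 6 genes, only Nkg7 (mean 14.7 RPKM) reached a mean of 1 RPKM, and Cd3e, Cd3g, Ncr1 and Trbc1 were at 0 in every library. The megakaryocyte list spanned 19.4 to 40.5 RPKM in the calcium-low and 28.5 to 55.3 RPKM in the calcium-high group. The value of 40.5 RPKM came from calcium-low replicate 3, and the highest calcium-low value without it was 30.9 RPKM. The part of these lists in the results was not tested. In bulk samples such as these, fewer cells of a type and less RNA per cell cannot be told apart.

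No member of the set passed the test between calcium-high and calcium-low HSCs. In limma on log2(RPKM + 1), 0 of 28 members passed an adjusted p of 0.05, beside 0% of all 9921 genes. With the replicate number as a block, a fit that removes what same-numbered libraries share, 0 of 28 members passed, beside 0.917% of all genes (48 higher and 43 lower). Before adjustment, 1 member (Rcn2) had a p under 0.05 without the block, beside 6.74% of all genes, and 2 members (Rcn2 and Slc8b1) with it, beside 13.9%. Without the block, the smallest adjusted p was 0.0504 for all genes and 0.734 for the members. Limma-voom was run with a quality weight for each library, so the libraries did not count equally. In the fit without the block, no library of replicates 1 to 3 had a weight above 0.935, and calcium-low replicate 3 had the lowest, 0.190. Replicates 4 to 7 had weights of 1.31 to 2.61, except calcium-high replicate 5 at 0.813. On recovered reads, limma-voom called 1 member lower (Itpr2; 3.57%, beside 7.19% of all genes) and, with the block, 2 members higher (Slc8a1 and Sdf4; 7.14%, beside 8.62%), and each of these 3 members was called in 1 of the 2 voom fits and not in the other. Before adjustment these fits gave 5 members (17.9%, beside 20.6% of all genes) and, with the block, 8 members (28.6%, beside 23.5%) a p under 0.05. The median log2 fold change of the members, calcium-high minus calcium-low, was -0.022, against -0.029 for all genes. It was below 0 in 16 of 28 members (57.1%), against 57.8% of all genes. That split moved with the scaling, for members and all genes alike: with median-of-ratios scaling 14 of 28 lay below 0, against 51.4% of all genes, and in limma-voom 10 of 28 (35.7%), against 41.4%.

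The fits also bound how large a difference could have been missed. Without the block, the 95% interval of the fold change lay within 2-fold either way for all 28 members and within 1.5-fold for 26 of them, the exceptions being Slc8b1 and Vdac3. With the block, it lay within 1.5-fold for all 28 and within 1.25-fold for 13. These bounds are on the log2(RPKM + 1) scale, which understates the change of genes near 1 RPKM. The plot of differences sets both intervals side by side.

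**Figure D1:**
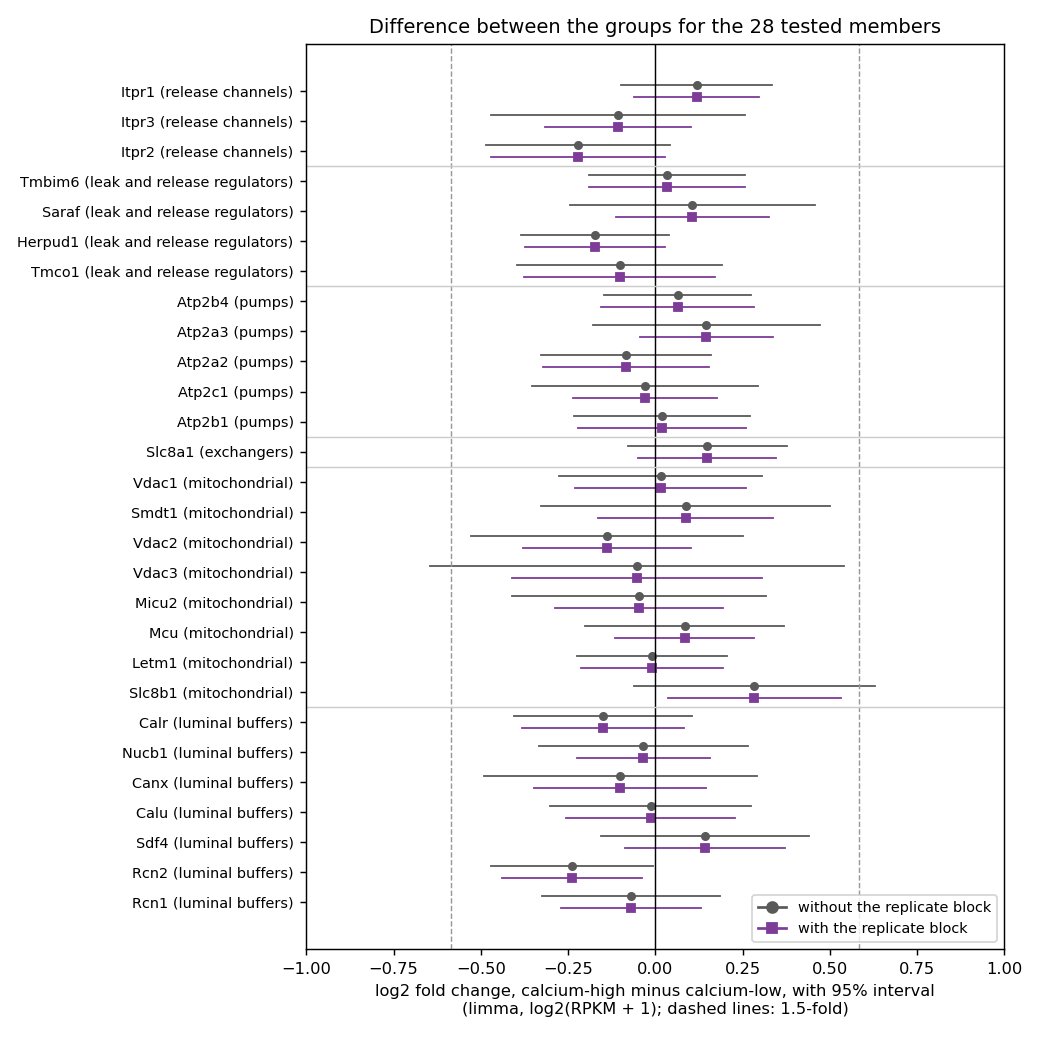
Log2 fold change (calcium-high minus calcium-low, x axis) of the 28 tested members by class, with 95% intervals from limma without the replicate block (grey circles) and with it (purple squares). All intervals without the block reach 0 except that of Rcn2, and with the block those of Rcn2 and Slc8b1 lie to one side of 0; dashed lines mark 1.5-fold.

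Levels per length ran from 1.54 RPKM for Slc8a1 to 74.0 RPKM for Calr among the tested members, as means over 14 libraries. The most abundant members were luminal binders and a leak regulator: Calr at 74.0, Tmbim6 at 37.1, Nucb1 at 33.1 and Canx at 30.7 RPKM. The pumps Atp2b4 (23.2 RPKM) and Atp2a3 (22.0 RPKM) followed, and the outer mitochondrial channel Vdac1 was at 19.1 RPKM. Neighbours in this order often overlapped: Nucb1 ranged from 21.8 to 41.2 RPKM over libraries and Canx from 23.3 to 58.2 RPKM. The exchangers, the uniporter pore Mcu (2.61 RPKM) and Itpr2 (1.97 RPKM) were at the lower end. These levels, and the overlap of the groups, are shown in the plot of levels by library.

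**Figure D2:**
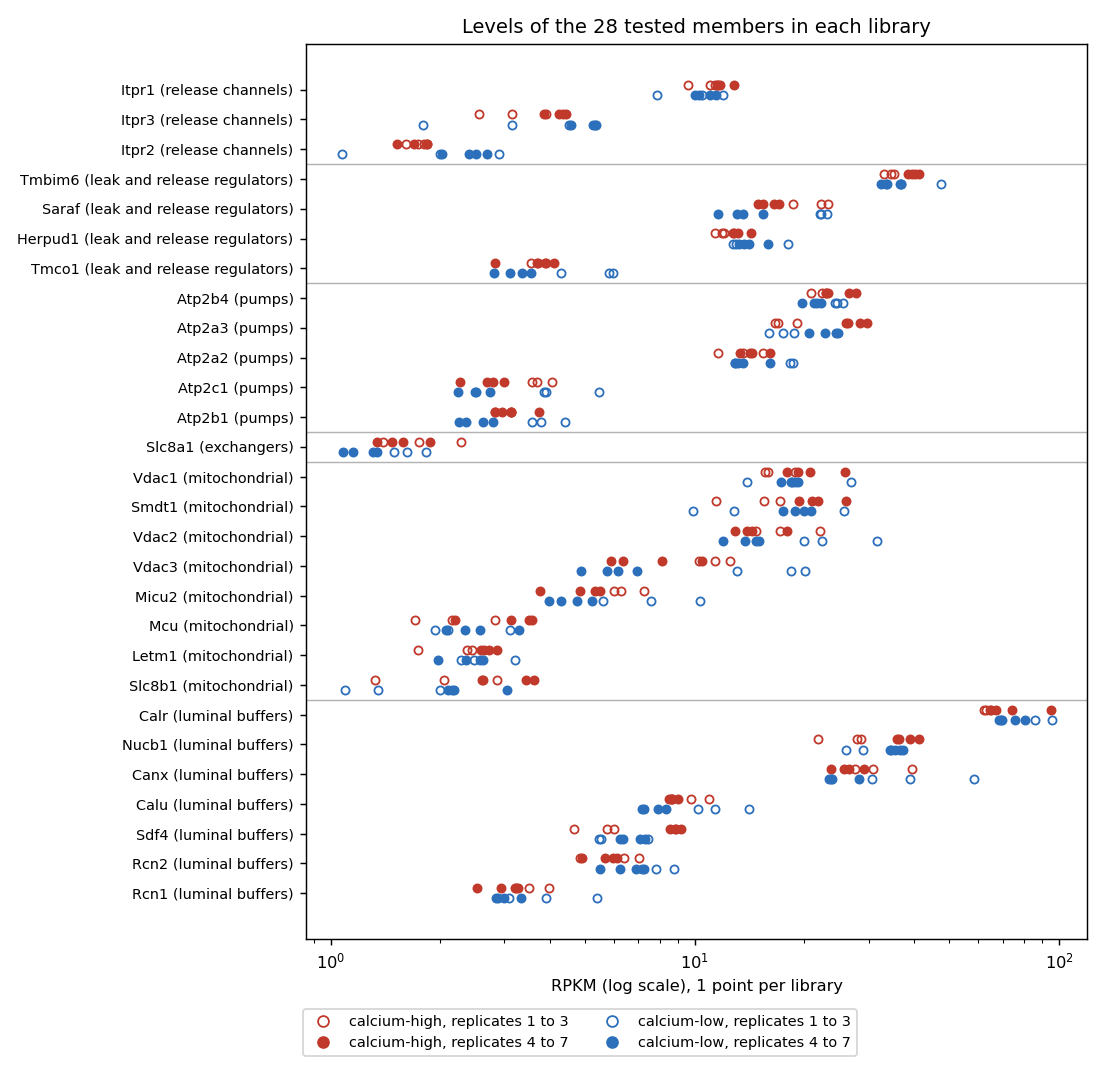
RPKM on a log axis (x) for each of the 28 tested members, grouped by class, with 1 point per library (red, calcium-high; blue, calcium-low; open, replicates 1 to 3; filled, replicates 4 to 7). In each of the 28 members the 7 calcium-high and 7 calcium-low libraries overlap, and for Vdac3, Saraf and Atp2a3 the open and filled points lie further apart than the colours.

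Of the 6 release channels, 3 were tested (1 above and 2 below 0), and none passed the test; IP3 receptor transcripts were far more abundant than those of ryanodine receptors. Itpr1, the IP3 receptor most abundant here, was at 11.4 ± 0.958 RPKM (SD, n = 7) in calcium-high and 10.4 ± 1.31 in calcium-low libraries, with calcium-high above in 6 of 7 same-numbered pairs. Itpr3 was at 3.78 ± 0.693 and 4.28 ± 1.34 RPKM, with calcium-high above in 2 of 7 pairs. The ryanodine receptors, the store channels best known from muscle, were close to 0: Ryr1 at 0.318 ± 0.189 and 0.379 ± 0.228 RPKM, and Ryr3 at 0.0560 ± 0.0240 and 0.0403 ± 0.0198.

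Itpr2 encodes the IP3 receptor with the highest affinity for its ligand (chromosome 6, 146108299 to 146502223, minus strand, GRCm38). The files list it in 2 copies, of which the more abundant was used. It had 1.52, 1.74 and 1.84 RPKM as lowest, median and highest calcium-high value, and 1.07, 2.39 and 2.90 RPKM in the calcium-low group. The 7 calcium-high libraries sat within a narrow band, and 6 of the 7 calcium-low libraries lay above all of them, while calcium-low replicate 3 was the lowest of all 14. The means were 1.72 ± 0.121 and 2.22 ± 0.604 RPKM, a log2 fold change of -0.22 (SE 0.12, limma adjusted p = 0.827). The gene was lower in calcium-high in 6 of 7 pairs, and its log2 fold change was -0.090 in replicates 1 to 3 and -0.32 in replicates 4 to 7. Without calcium-low replicate 3 it was -0.32 with no call. With median-of-ratios scaling the gene had a log2 fold change of 0.073 in replicates 1 to 3 and -0.41 in replicates 4 to 7. In limma-voom on reads recovered from the RPKM steps, it was the 1 member called (-0.47, adjusted p = 0.0149), beside 7.19% of all genes called in that fit. With the replicate block limma-voom did not call it (-0.36, adjusted p = 0.0974).

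Within the IP3 receptor family the 3 isoforms did not lie on the same side. Itpr1 made up 67.5 ± 2.07% of the family's RPKM in calcium-high and 62.4 ± 6.14% in calcium-low libraries, Itpr2 10.3 ± 1.21% and 12.9 ± 1.79%, and Itpr3 22.3 ± 2.67% and 24.7 ± 4.88%. The family total was 16.9 RPKM in both groups (SD 1.52 and 3.0). In replicates 4 to 7 the Itpr1 share was 66.7 ± 1.78% against 58.7 ± 3.13% (n = 4 each) and the 2 groups did not overlap, with 65.4% the lowest calcium-high and 62.5% the highest calcium-low value. In replicates 1 to 3 the shares were 68.5 ± 2.33% and 67.3 ± 5.83% (n = 3 each) and overlapped. No test was run on these shares.

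Ryr2 is given by its reads, since it lay below the level for testing. It had 2, 10, 2, 63, 42, 118 and 109 reads in calcium-high replicates 1 to 7, and 0, 4, 2, 18, 55, 3 and 0 in calcium-low replicates 1 to 7. Calcium-high was above calcium-low in RPKM in 5 of 7 pairs and below it in replicates 3 and 5, and its reads came mostly from replicates 4 to 7. The 2 libraries at 0 reads allow up to 0.0122 and 0.00475 RPKM (3 reads, counting error only). Ryr2 is the store channel of heart muscle, and the striated muscle list summed to at most 1.2 RPKM in any library.

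Among the regulators of leak and release, none of 4 passed the test (2 above and 2 below 0). Tmbim6, a membrane protein that lets calcium leak from the ER, was at 37.5 ± 3.12 and 36.7 ± 5.02 RPKM. Tmco1, a load-activated ER channel, was at 3.67 ± 0.413 and 4.12 ± 1.29 RPKM. Saraf, which shuts off store-operated entry, was at 18.3 ± 3.28 and 17.3 ± 4.98 RPKM.

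Herpud1 is an ER stress protein that takes part in ER-associated degradation (chromosome 8, 94386438 to 94395377, plus strand, GRCm38). Its lowest, median and highest values were 11.4, 12.7 and 14.2 RPKM in calcium-high and 12.8, 13.7 and 18.1 RPKM in the calcium-low group. The groups overlapped between 12.8 and 14.2 RPKM, with the highest value in calcium-low replicate 3. The means were 12.6 ± 0.944 and 14.4 ± 1.93 RPKM, a log2 fold change of -0.17 (SE 0.10, limma adjusted p = 0.845), and calcium-high was lower in 6 of 7 pairs. The log2 fold change was -0.27 in replicates 1 to 3 and -0.097 in replicates 4 to 7. With median-of-ratios scaling it was -0.037 in replicates 1 to 3 and -0.23 in replicates 4 to 7.

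Of the pumps, 5 of 7 were tested (3 above and 2 below 0), and none passed the test. Atp2a2, the SERCA pump found in nearly all tissues, was at 14.1 ± 1.46 and 15.1 ± 2.56 RPKM, and Atp2a1, its fast muscle counterpart, was at 0.175 ± 0.104 and 0.143 ± 0.0706. The plasma membrane pump Atp2b4 was at 23.8 ± 2.41 and 22.7 ± 2.10 RPKM, and Atp2b1 at 3.10 ± 0.310 and 3.11 ± 0.812. Atp2b2 was at 0 reads in 9 of 14 libraries and at 7 reads at most; a count of 0 allows for 0.00793 RPKM in the deepest and 0.0206 RPKM in the shallowest library. Atp2c1, the pump of the Golgi, was at 3.15 ± 0.634 and 3.32 ± 1.16 RPKM.

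Atp2a3 encodes the SERCA pump of blood cells and some epithelia (chromosome 11, 72961169 to 72993044, plus strand, GRCm38), again listed in 2 copies with nearly the same values. Over libraries the lowest, median and highest values were 16.6, 26.1 and 29.7 RPKM in calcium-high and 16, 20.5 and 24.6 RPKM in the calcium-low group. The 6 libraries of replicates 1 to 3 lay below all 8 of replicates 4 to 7, in both calcium groups. Within replicates 4 to 7, all 4 calcium-high libraries were above all 4 calcium-low libraries on the deposited scale. Groups of 4 did not overlap, in either direction, in 16.9% of all genes. With median-of-ratios scaling Atp2a3 separated the groups in replicates 1 to 3 and not in replicates 4 to 7. The means were 23.3 ± 5.59 and 20.7 ± 3.41 RPKM, a log2 fold change of 0.15 (SE 0.15, limma adjusted p = 0.991), higher in 6 of 7 pairs. It was 0.0086 in replicates 1 to 3 and 0.25 in replicates 4 to 7, where the limma adjusted p was 0.0808. With median-of-ratios scaling it was 0.25 in replicates 1 to 3 and 0.12 in replicates 4 to 7.

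Atp2a3 held 61.4 ± 5.70% of SERCA RPKM in calcium-high and 57.5 ± 6.81% in calcium-low libraries, with a range of 46% to 66.3% over all 14. It was above Atp2a2 in 13 of 14 libraries, the exception being calcium-low replicate 3. Atp2b4 held 88.4 ± 1.51% and 88.1 ± 1.93% of the plasma membrane pump RPKM. The composition of the families by library is drawn for 4 of them.

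**Figure D3:**
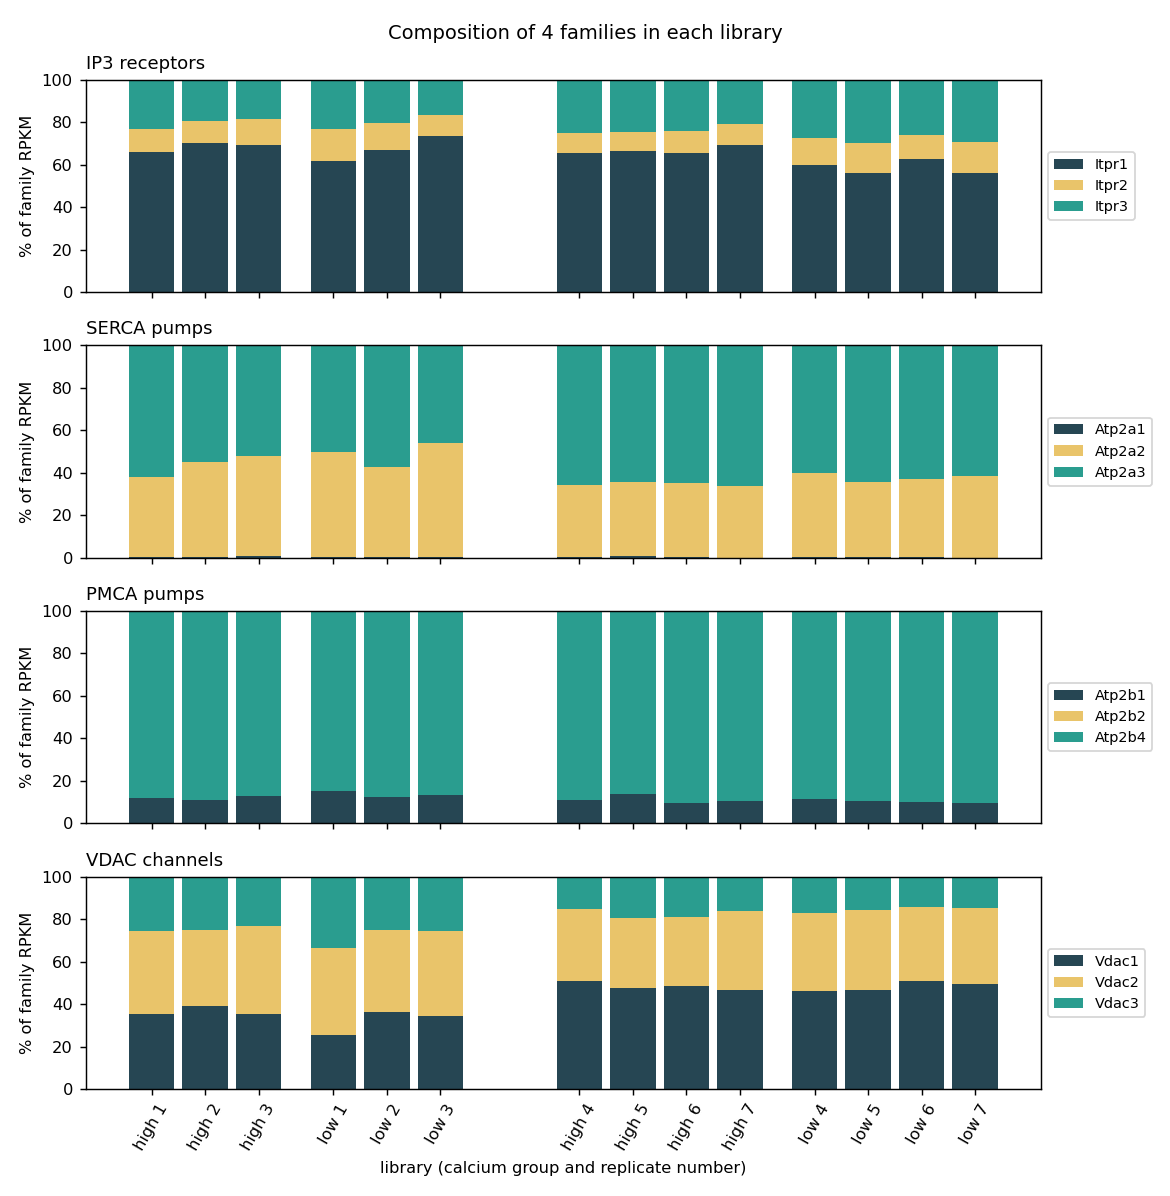
Percent of the family total in RPKM (y axis, stacked to 100) held by each member in each of the 14 libraries, for IP3 receptors, SERCA pumps, plasma membrane (PMCA) pumps and VDAC channels; replicates 1 to 3 stand on the left and 4 to 7 on the right. The Itpr1 share in replicates 4 to 7 is 66.7% in calcium-high and 58.7% in calcium-low, and the Vdac1 share is 34.3% in replicates 1 to 3 and 48.2% in replicates 4 to 7.

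Slc8a1, the sodium-calcium exchanger of the plasma membrane (chromosome 17, 81373105 to 81738377, minus strand, GRCm38), was the 1 exchanger tested. Lowest, median and highest values were 1.34, 1.58 and 2.27 RPKM in calcium-high and 1.08, 1.34 and 1.83 RPKM in the calcium-low group. The groups overlapped through most of their range, and the highest value of each group came from replicate 1. The means were 1.67 ± 0.329 and 1.4 ± 0.263 RPKM, a log2 fold change of 0.15 (SE 0.11, limma adjusted p = 0.928), higher in 6 of 7 pairs. It was 0.072 in replicates 1 to 3 and 0.21 in replicates 4 to 7. With median-of-ratios scaling it was 0.23 in replicates 1 to 3 and 0.13 in replicates 4 to 7. Limma-voom with the replicate block called the gene (0.31, adjusted p = 0.021) beside 8.62% of all genes. Without the block, limma-voom did not call it (0.38, adjusted p = 0.0605). Slc24a3, an exchanger that also moves potassium, was at 0.189 ± 0.106 and 0.239 ± 0.114 RPKM.

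The 8 mitochondrial genes were all above the level for testing (4 above and 4 below 0), and none passed the test. The uniporter pore Mcu was at 2.72 ± 0.722 and 2.49 ± 0.533 RPKM, its gatekeeper Micu2 at 5.56 ± 1.11 and 5.96 ± 2.26, and its small essential subunit Smdt1 at 18.9 ± 4.71 and 17.9 ± 5.23. Letm1, an inner membrane cation exchanger, was at 2.48 ± 0.366 and 2.50 ± 0.378 RPKM. The outer membrane channels Vdac1 and Vdac3 were at 19.1 ± 3.44 and 19.0 ± 3.89, and at 9.28 ± 2.54 and 10.7 ± 6.37 RPKM.

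Slc8b1, the mitochondrial sodium-calcium exchanger that returns calcium from the matrix (chromosome 5, 120511168 to 120534024, plus strand, GRCm38), had the largest log2 fold change of the 28 tested members by size. Values (lowest, median, highest) were 1.33, 2.62 and 3.62 RPKM in calcium-high and 1.09, 2.10 and 3.04 RPKM in the calcium-low group. Calcium-high was above calcium-low in 6 of 7 pairs, all but replicate 6, and the groups overlapped. The means were 2.65 ± 0.789 and 1.99 ± 0.631 RPKM, from 57 to 312 reads a library. The log2 fold change was 0.28 (SE 0.16, limma adjusted p = 0.836), with 0.30 in replicates 1 to 3 and 0.27 in replicates 4 to 7. With median-of-ratios scaling it was 0.45 in replicates 1 to 3 and 0.17 in replicates 4 to 7. Slc8b1, Itpr1, Atp2a3 and Slc8a1 were the 4 members with a log2 fold change above 0 in both sets of replicates on the deposited scale.

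Vdac2 (chromosome 14, 21825238 to 21845879, plus strand, GRCm38) encodes an outer membrane channel that also binds the death effector Bak. Its lowest, median and highest values were 12.9, 14.7 and 22.1 RPKM in calcium-high and 11.9, 15.0 and 31.7 RPKM in the calcium-low group. The highest value of each group came from replicate 3. The means were 16.1 ± 3.16 and 18.5 ± 6.87 RPKM, a log2 fold change of -0.14 (SE 0.18, limma adjusted p = 0.992), and calcium-high was lower in 4 of 7 pairs. It was -0.43 in replicates 1 to 3 and 0.081 in replicates 4 to 7, and -0.0023 without calcium-low replicate 3. With median-of-ratios scaling it was -0.19 in replicates 1 to 3 and -0.050 in replicates 4 to 7. Among the VDAC channels, the share of Vdac1 was 34.3 ± 4.60% in replicates 1 to 3 and 48.2 ± 1.90% in replicates 4 to 7, and that of Vdac3 26.4 ± 3.60% and 16.5 ± 1.87%.

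Of the luminal calcium binders, 7 of 8 were tested, with 6 below 0 and 1 above and no call in limma on RPKM. Canx, the membrane-bound lectin chaperone calnexin, was at 29.0 ± 5.15 and 32.4 ± 12.7 RPKM. The EF-hand proteins Calu and Rcn1 were at 9.16 ± 0.899 and 9.47 ± 2.56, and at 3.23 ± 0.450 and 3.49 ± 0.915 RPKM. Nucb1, a nucleobindin of the Golgi, was at 32.9 ± 6.99 and 33.3 ± 4.19 RPKM, and its paralog Nucb2 at 0.108 ± 0.0747 and 0.116 ± 0.0946.

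Rcn2, an EF-hand protein of the ER lumen (chromosome 9, 56041845 to 56061882, plus strand, GRCm38), was lower in calcium-high in 7 of 7 pairs. Over libraries the lowest, median and highest values were 4.83, 5.97 and 7.01 RPKM in calcium-high and 5.49, 7.14 and 8.78 RPKM in the calcium-low group. The groups overlapped, since the lowest calcium-low libraries lay inside the calcium-high range. The means were 5.84 ± 0.789 and 7.09 ± 1.06 RPKM, a log2 fold change of -0.24 (SE 0.11, 95% interval -0.47 to -0.0066, limma adjusted p = 0.734). It was -0.34 in replicates 1 to 3 and -0.16 in replicates 4 to 7, and -0.22 without calcium-low replicate 3. With median-of-ratios scaling it was -0.12 in replicates 1 to 3 and -0.28 in replicates 4 to 7. Rcn2 was the 1 member of 28 (3.57%) with the same direction in all pairs, beside 5.53% of all genes.

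Calr encodes calreticulin, the main soluble calcium buffer of the ER (chromosome 8, 84841850 to 84846934, minus strand, GRCm38). Lowest, median and highest values were 62.3, 65 and 94.7 RPKM in calcium-high and 68.3, 75.7 and 95.6 RPKM in the calcium-low group. Calcium-high was lower in 6 of 7 pairs, and replicate 5, where it was higher, gave 94.7 against 80.4 RPKM. The means were 70.2 ± 11.5 and 77.8 ± 10.2 RPKM, a log2 fold change of -0.15 (SE 0.12, limma adjusted p = 0.951). It was -0.38 in replicates 1 to 3 and 0.021 in replicates 4 to 7 on the deposited scale. With median-of-ratios scaling it was -0.13 in replicates 1 to 3 and -0.12 in replicates 4 to 7. The 8 members picked for full values, with their pairs, are drawn together.

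**Figure D4:**
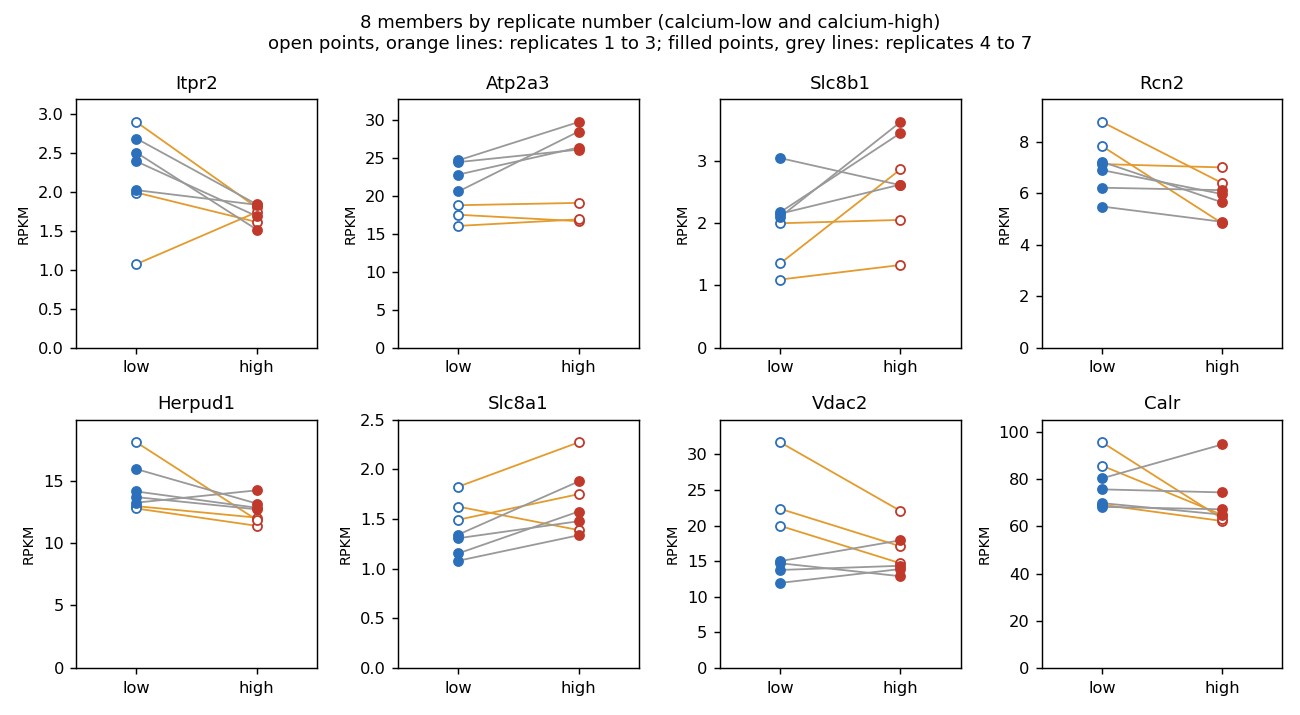
RPKM (y axis, from 0) in calcium-low and calcium-high libraries for 8 members, with lines joining libraries of the same replicate number (open points and orange lines, replicates 1 to 3; filled points and grey lines, replicates 4 to 7). Rcn2 slopes down in all 7 pairs, Itpr2, Herpud1 and Calr in 6, and Atp2a3, Slc8a1 and Slc8b1 slope up in 6. The 8 members were picked by the smallest p under the replicate block in each class, which favours pairs that agree. Over all genes, 21.6% had 6 or 7 of 7 pairs in the same direction.

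Sdf4, an EF-hand protein of the Golgi lumen also known as Cab45, lay on different sides in the 2 sets of replicates on the deposited scale. It was at 8.54 to 9.16 RPKM in calcium-high and 6.25 to 7.31 RPKM in calcium-low libraries of replicates 4 to 7, and at 4.67 to 6.02 against 5.44 to 7.42 RPKM in replicates 1 to 3. In a fit of replicates 4 to 7 alone it was the 1 member called (log2 fold change 0.35, adjusted p = 0.0194), beside 8.14% of all genes. Over all 14 libraries the means were 7.4 ± 1.86 and 6.48 ± 0.816 RPKM (0.14, adjusted p = 0.990), higher in 5 of 7 pairs. The test of the difference between the sets gave an adjusted p of 0.116. With median-of-ratios scaling its log2 fold change was above 0 in both sets, 0.083 in replicates 1 to 3 and 0.23 in replicates 4 to 7.

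Agreement between pairs was near that of other genes. In 8 of 28 members (28.6%), 6 or 7 of 7 pairs had the same direction, beside 21.6% of all genes: Itpr1, Atp2a3, Slc8a1 and Slc8b1 higher, and Itpr2, Herpud1, Calr and Rcn2 lower in calcium-high. The 2 groups of 7 overlapped in all 28 members, and did not overlap in 0.141% of all genes. In replicates 4 to 7 the groups of 4 did not overlap in 9 members (32.1%), beside 16.9% of all genes: Itpr1, Atp2a3, Atp2b1, Atp2b4, Calu, Sdf4 and Tmbim6 were higher and Itpr2 and Itpr3 lower in calcium-high. In replicates 1 to 3 the groups of 3 did not overlap in 8 members (28.6%), beside 20.3% of all genes, and all 8 (Atp2b1, Atp2b4, Calr, Rcn2, Tmbim6, Tmco1, Herpud1 and Vdac3) were lower in calcium-high. Atp2b1, Atp2b4 and Tmbim6 thus separated the groups within each set, in opposite directions, on the deposited scale. With median-of-ratios scaling, which sets each library by the typical gene, 4 members did not overlap in replicates 4 to 7 (14.3%, beside 13.8% of all genes; Sdf4 and Tmbim6 higher, Itpr2 and Itpr3 lower) and 3 in replicates 1 to 3 (10.7%, beside 8.85%; Itpr1, Atp2a3 and Slc8a1 higher), and none separated the groups in both.

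On the deposited RPKM scale, the 2 sets of replicates gave different directions for most members. In replicates 1 to 3, 23 of 28 members were lower in calcium-high (median log2 fold change -0.19), and the median of all genes was -0.20. In replicates 4 to 7, 23 of 28 were higher (median 0.14), and the median of all genes was 0.11. The median of the members was thus close to that of all genes in each set. The test of the difference between sets called 0 of 28 members, beside 0% of all genes, and before adjustment 8 members (28.6%), beside 28.6% of all genes, had a p under 0.05. Atp2b1 had the smallest adjusted p of the members, 0.105. With median-of-ratios scaling, 17 of 28 members were higher in replicates 1 to 3 (median 0.042, with 0.0014 for all genes) and 16 of 28 in replicates 4 to 7 (median 0.030, with -0.00059). Under that scaling the difference between sets lay above 0 in 11 members and below 0 in 17, 3 members (10.7%) had a p under 0.05 before adjustment, beside 7.36% of all genes, and none was called.

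**Figure D5:**
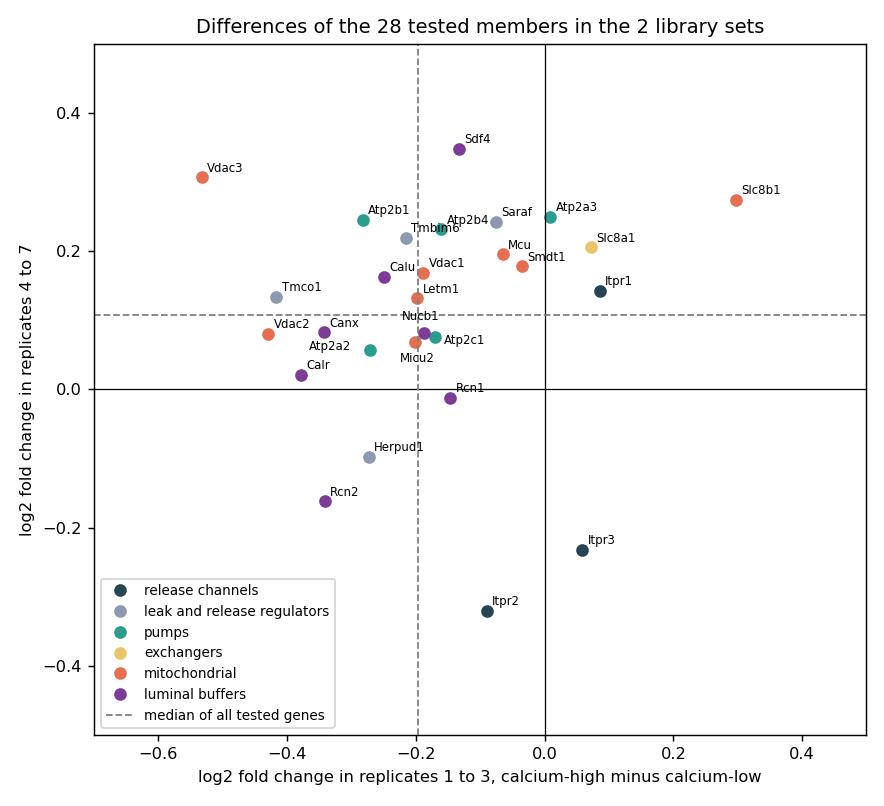
Log2 fold change (calcium-high minus calcium-low) of the 28 tested members in replicates 1 to 3 (x axis) and 4 to 7 (y axis), coloured by class, with dashed lines at the medians of all tested genes (-0.20 and 0.11), on the deposited RPKM scale. Most members lie in the upper left, close to where the dashed lines cross; Itpr2, Itpr3, Rcn2, Herpud1 and Rcn1 lie below 0 on the y axis.

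The set of replicates also moved members regardless of calcium group. Between replicates 4 to 7 and 1 to 3, 15 of 28 members (53.6%) passed the test, beside 48.8% of all genes, and 16 (57.1%) had a p under 0.05 before adjustment, beside 55.9%. Vdac3 was lower in replicates 4 to 7 (log2 difference -0.95), as were Saraf (-0.55), Vdac2 (-0.51), Canx (-0.50), Micu2 (-0.50) and Atp2c1 (-0.50). Atp2a3 (0.51), Itpr3 (0.47), Smdt1 (0.46), Slc8b1 (0.44) and Nucb1 (0.40) were higher there. In Atp2a3, Atp2c1, Micu2 and Saraf the 6 libraries of 1 set did not overlap the 8 of the other (14.3% of members, beside 17.1% of all genes). Each of these 11 differences was larger in size than the largest between calcium groups (0.28, Slc8b1).

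Calcium-low replicate 3 held the highest value of all 14 libraries for 12 of 28 members (42.9%), beside 26.9% of all genes: Atp2a2, Atp2c1, Micu2, Calr, Canx, Calu, Tmbim6, Tmco1, Herpud1, Vdac1, Vdac2 and Vdac3. Canx was at 58.2 RPKM there against 23.3 to 39.4 in the other 13 libraries, Micu2 at 10.3 against 3.76 to 7.59, and Tmbim6 at 47.3 against 32.4 to 41.1. It was the lowest library for the IP3 receptors, with Itpr1 at 7.88 RPKM against 9.59 to 12.8 and Itpr3 at 1.79 against 2.55 to 5.37. This is the library whose neutrophil, erythroid and cycling markers stood apart, and the part of those markers in its member values was not tested. Without it, no member was called, 11 of 28 members (39.3%) were lower in calcium-high, beside 51.5% of all genes, and the median of the members was 0.067.

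Genes that work with the members were described from 5 lists. Most of those named were picked by the smallest p under the replicate block, which favours pairs that agree. Over all genes, 5.53% had the same direction in 7 of 7 pairs. Of 13 tested among 22 other store channels and pumps, 7 lay above and 6 below 0 (median 0.051), with no call in limma on RPKM, with or without the block. The melanosomal exchanger Slc24a5 averaged 5.20 ± 1.33 RPKM against 3.77 ± 1.25 in the calcium-low group, higher in 7 of 7 pairs (0.39, limma adjusted p = 0.678), and Grina, a relative of Tmbim6, at 10.4 ± 3.02 and 8.39 ± 1.96, higher in 7 of 7 (0.26, adjusted p = 0.934). In limma-voom, Slc24a5 was called without the block (adjusted p = 0.0198) and with it (0.00329), and Grina only with it (0.0255, against 0.285 without). Over all genes, limma-voom called 7.19% without the block and 8.62% with it. The blocked fit with median-of-ratios scaling called 2 genes of this list higher, beside 216 higher among all 9921 genes. Of 11 tested among 20 regulators of channels and pumps, 3 lay above and 8 below 0 (median -0.056), with no call in limma on RPKM. Tespa1, which binds IP3 receptors in lymphocytes, was at 0.832 ± 0.518 and 2.21 ± 1.09 RPKM, lower in 6 of 7 pairs (-0.78, adjusted p = 0.385), and limma-voom called it lower without the block (adjusted p = 0.00902) and with it (0.00303). The blocked fit with median-of-ratios scaling called 1 regulator lower, beside 72 lower among all 9921 genes. Itprip, an IP3 receptor interacting protein, was at 7.90 ± 1.23 and 9.70 ± 2.45 RPKM (-0.24, adjusted p = 0.865).

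Of 14 tested mitochondrial uptake partners, 7 lay above and 7 below 0 (median 0.020), with no call in limma on RPKM. The carrier Slc25a25, which moves adenine nucleotides in response to calcium, was at 1.14 ± 0.302 and 1.60 ± 0.397 RPKM, lower in 7 of 7 pairs (-0.28, limma adjusted p = 0.734). Pdzd8, which tethers the ER to mitochondria, was at 5.22 ± 0.415 and 6.16 ± 0.738 RPKM, lower in 7 of 7 pairs (-0.20, adjusted p = 0.737). Limma-voom, which called 7.19% of all genes (8.62% with the block), called Slc25a25 lower (adjusted p = 0.0410, and 0.0412 with the block). It also called Vapb, an ER protein of membrane contacts named after its values were seen, higher (adjusted p = 0.0333, and 0.0252 with the block), at 2.23 ± 0.250 and 1.84 ± 0.159 RPKM.

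Of the luminal chaperones, 13 of 18 were tested, and all 13 had a log2 fold change below 0 (median -0.15), beside 57.8% of all genes, with no call in limma on RPKM or in limma-voom, with or without the block. With median-of-ratios scaling 12 of 13 lay below 0, in limma-voom 8 (median -0.048) and in limma-voom with the block 11 (median -0.067). Hspa5, the chaperone BiP, was at 50.6 ± 6.94 and 55.6 ± 11.5 RPKM, and Hsp90b1 at 18 ± 2.33 and 21.9 ± 8.43. Manf was at 3.55 ± 1.32 and 4.45 ± 1.21 RPKM (-0.28, limma adjusted p = 0.855), and Sdf2l1 at 8.74 ± 5.97 and 9.43 ± 2.59 (-0.28, adjusted p = 0.991). In replicates 1 to 3 all 13 were below 0 (median -0.44, with -0.20 for all genes), whereas in replicates 4 to 7 only Hspa5 was (median 0.092, with 0.11 for all genes). With median-of-ratios scaling 11 of 13 were below 0 in replicates 1 to 3 (median -0.22) and 8 of 13 in replicates 4 to 7 (median -0.034).

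Of the 18 genes of IP3 production, 10 were tested, 6 above and 4 below 0 (median 0.072). Plcl1 encodes a phospholipase C-like protein that binds IP3 and has no lipase activity. It was the 1 gene of the 5 lists called in limma on RPKM with the replicate block, beside 0.917% of all genes. Values (lowest, median, highest) were 0.826, 2.39 and 4.38 RPKM in calcium-high and 0.448, 0.676 and 1.89 RPKM in the calcium-low group. It was higher in calcium-high in 7 of 7 pairs, while the groups overlapped. The means were 2.25 ± 1.23 and 1 ± 0.605 RPKM, a log2 fold change of 0.67, with a limma adjusted p of 0.0364 with the block and 0.505 without it. Limma-voom called it without the block (adjusted p = 0.00336, beside 7.19% of all genes) and with it (0.000332, beside 8.62%). Plcb4, a phospholipase C that makes IP3, was at 2.96 ± 0.385 and 2.47 ± 0.728 RPKM (0.21, adjusted p = 0.855), and limma-voom called it higher (adjusted p = 0.0492, and 0.0436 with the block).

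The authors' counting is not described as stranded, and 12 members share exon bases with another annotated gene. Among them Itpr3 overlaps Itpr3os, Atp2c1 overlaps Aste1, Vdac2 overlaps Comtd1 and Calu overlaps Opn1sw on the opposite strand, and Smdt1 overlaps Pheta2 on its own. Reads of such pairs cannot be told apart in these files.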

How the data were processed

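RPKM values, 1 file per library, were computed by the authors and deposited; the unit was read from the values, since the headers name none. The submitters' processing notes name GRCm38, mm10 and edgeR; aligner, counter and annotation are not given in the sources used here. Of 48737 labels per file, 23 had become serial numbers and were left out. Values of all 9921 tested genes were whole multiples of 1 read to within 0.02 read (0 of 500 jittered genes were), which gave the reads quoted.

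Genes averaging at least 1 RPKM were tested on log2(RPKM + 1) with limma 3.58.1 (R 4.3.3, mean-variance trend), calcium-high minus calcium-low. P-values were adjusted by Benjamini-Hochberg over all genes, at 0.05. The fit was also run on simulated reads with no difference between library sets or replicates, so that run does not check it against such differences. Tables and figures used Python 3.11.15. The pairing comes from the label numbers: deviations of same-numbered libraries from their group means correlated by 0.384 to 0.715. Only 2 of 7 calcium-high libraries correlated best with their own number. The deviations kept the difference between library sets, so these correlations cannot tell pairing from a shared set. The replicate block is therefore given beside results it changes. Members with full values are the 2 per class (release, pumps and exchangers, mitochondrial, luminal) with the smallest p under the block; the same rule named genes of the 5 other lists. Members, lists and tests were chosen with earlier results of these data known. Sdf4 and Ryr2 were added after their values were seen. Coordinates are from GENCODE on GRCm38 and promoters from RefSeq. Alternatives were other pseudocounts, filters, scalings, replicates and limma-voom on the recovered reads.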

Additional observations from a re-analysis of the deposited data

Results flagged for a closer look

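In 7 of 70 groups of 7 libraries examined, 1 library lay far from the others of its group by Dixon's test at the 95% level, where chance gives about 1 in 20. In calcium-low libraries, Ryr2 was at 0.0938 RPKM in replicate 5 against 0.0312 for the next, Rcn1 at 5.4 RPKM in replicate 1 against 3.89, Tmbim6 at 47.3 RPKM in replicate 3 against 36.8, and Vdac1 at 26.8 RPKM in replicate 3 against 19.2. Atp2b2 was at 0.00290 RPKM in calcium-low replicate 6, a single read, and at 0 in the other 6. In calcium-high libraries, Atp2b1 was at 3.74 RPKM in replicate 5 against 3.13 for the next, and Calr at 94.7 RPKM in replicate 5 against 74.4. Of these 7, 2 fall in calcium-low replicate 3 and 2 in calcium-high replicate 5.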

How the results depend on the processing

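No member was called without or with the replicate block, under either other pseudocount, without a filter, with median-of-ratios scaling, with the sum over copies, with library set as a term, or when any 1 library or pair was left out. Among members and the 5 lists, the block in limma on RPKM changed the call of Plcl1 alone; with median-of-ratios scaling it added 4 calls in the lists, and in limma-voom it lost Itpr2 and added Slc8a1, Sdf4 and Grina. Over all genes, 0 were called; the block gave 48 higher and 43 lower, no filter 1 higher, median-of-ratios scaling 4 higher (216 higher and 72 lower with the block), limma-voom 464 higher and 249 lower (578 and 277 with the block), replicates 4 to 7 alone 631 higher and 177 lower (502 and 154 with the block), replicates 1 to 3 with the block 1 lower, library set as a term 22 higher and 29 lower, and leaving out both libraries of replicate 3 gave 78 higher and 41 lower. Leaving out 1 library or pair gave 0 to 164 higher and 0 to 138 lower, the most without replicate 3 in the fit with the block. Without calcium-high replicate 3 alone, 69 were higher and 32 lower, and without calcium-low replicate 3 alone 7 and 13. Of the members, replicates 4 to 7 gave 1 higher (1 with the block), limma-voom 1 lower and limma-voom with the block 2 higher (Slc8a1, and Sdf4 at 0.24, adjusted p = 0.0384). Luminal chaperones below 0 numbered 13, and 1 in replicates 4 to 7.

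Signs of uncalled members changed as follows (log2). In replicates 1 to 3: Itpr3 0.059, Atp2b1 -0.28, Atp2b4 -0.16, Mcu -0.065, Smdt1 -0.035, Sdf4 -0.13, Tmbim6 -0.22, Saraf -0.076 and Vdac1 -0.19. In replicates 4 to 7: Atp2a2 0.057, Atp2c1 0.076, Micu2 0.069, Letm1 0.13, Calr 0.021, Canx 0.082, Calu 0.16, Tmco1 0.13, Nucb1 0.082, Vdac2 0.081 and Vdac3 0.31. With median-of-ratios scaling: Letm1 0.011 and Calu 0.015. With limma-voom: Atp2c1 0.066, Micu2 0.0099, Letm1 0.11, Calu 0.12, Tmco1 0.10 and Vdac3 0.17. With limma-voom and the block: Atp2c1 0.015, Letm1 0.047, Calu 0.099, Tmco1 0.019 and Nucb1 0.0017. Without both libraries of replicate 3: Atp2c1 0.043, Micu2 0.021, Calu 0.092 and Vdac3 0.045. Without 1 library or pair, values ran over -0.14 to 0.0043 for Atp2a2, -0.043 to 0.089 for Atp2b1, -0.0047 to 0.11 for Atp2b4, -0.092 to 0.075 for Atp2c1, -0.12 to 0.079 for Micu2, -0.037 to 0.19 for Smdt1, -0.056 to 0.047 for Letm1, -0.17 to 0.050 for Canx, -0.067 to 0.092 for Calu, -0.11 to 0.019 for Rcn1, -0.0091 to 0.11 for Tmbim6, -0.091 to 0.057 for Nucb1, -0.060 to 0.099 for Vdac1 and -0.19 to 0.12 for Vdac3. The cause was not tested. On the deposited scale, the median of all genes was -0.20 in replicates 1 to 3 and 0.11 in replicates 4 to 7. With median-of-ratios scaling these medians were 0.0014 and -0.00059. Replicates 1 to 3 hold fewer reads. The tested member with the fewest, Slc8b1, rests on as few as 57 in a library and is not among those listed.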
